A study of Mus musculus with 2 samples.

Results

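Activin and bone morphogenetic protein (BMP) ligands and their secreted antagonists were followed through single-cell RNA libraries of hind limb muscle from mdx mice, which lack dystrophin and undergo repeated rounds of fibre damage and repair. The 10 genes were taken by symbol among the 24984 genes of the count matrices: Inhba, Inhbb, Fst, Fstl1, Gdf10, Bmp2, Bmp4, Bmp6, Grem1 and Gdf15. The comparison set 1 control library (Ctrl; Pax7CreERT2/R26YFP; Yy1+/+; mdx) against 1 library in which both Yy1 alleles were floxed (dKO; Pax7CreERT2/R26YFP; Yy1f/f; mdx). Both groups carried the mdx mutation, both received intraperitoneal tamoxifen, and Pax7CreERT2 drives recombination in muscle stem cells (MuSCs), so that Yy1 was to be lost in MuSCs and kept in the other cells of the niche. Live cells were sorted on propidium iodide exclusion with no gate on lineage, and each library pooled cells of several mice.

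Activins and BMPs are dimeric ligands of the transforming growth factor β superfamily. They assemble type I and type II serine/threonine kinase receptors, which phosphorylate SMAD2/3 (activins) or SMAD1/5/8 (BMPs), and secreted proteins such as follistatin, chordin and gremlin 1 bind the ligands and keep them from the receptors. In muscle, activins and myostatin restrain fibre growth, follistatin opposes them, and fibro-adipogenic progenitors (FAPs), the resident mesenchymal cells, are a known source of several of these proteins.

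The Ctrl and dKO libraries held 4527 and 3483 barcodes with 45556596 and 33815155 unique molecular identifiers (UMIs). After cells with fewer than 500 genes and the 7.5% of cells with the highest doublet scores were left out, 4010 and 3079 cells remained with medians of 7880 and 7806 UMIs, and 7 barcode sequences occurred in both libraries. Yy1 gave 369 UMIs in 117 MuSC-like Ctrl cells and 3 UMIs in 30 MuSC-like dKO cells, a ratio of 0.0304 (95% counting interval 0.00623 to 0.0894), whereas in FAP-like cells it stood at 121 and 132 CPM. Levels are given as CPM, counts of UMIs scaled to 1000000 UMIs of the same cells, and a ratio is the dKO level over the Ctrl level. With 1 library in each group no difference between genotypes could be tested, and every interval covers counting error only. UMIs of a gene that sit in few cells vary more than these intervals allow, so the number of UMIs in the richest cell is given for several of them. More transcript per cell and a larger share of transcribing cells cannot be told apart in a sum over cells, and levels were not compared between genes, since the reads come from transcript ends.

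On GRCm38, Inhba (chr13:16011851-16031621, plus strand), Bmp6 (chr13:38345107-38500302, plus) and Fst (chr13:114452290-114458951, minus) lie on chromosome 13, Grem1 (chr2:113746164-113758646, minus) and Bmp2 (chr2:133552159-133562885, plus) on chromosome 2, and Gdf10 (chr14:33923587-33937983, plus) and Bmp4 (chr14:46383520-46390669, minus) on chromosome 14. Inhbb (chr1:119415465-119422248, minus), Gdf15 (chr8:70629393-70632456, minus) and Fstl1 (chr16:37776873-37836514, plus) are alone on theirs, and all 10 are annotated as protein coding. RefSeq start-site windows on GRCm38.p6, from 250 bases before to 50 bases after the start, were found for 8 of the 10 genes. The windows of Inhba, whose sums in FAP-like cells differed most between the libraries, and of Gdf10, the member most concentrated in a FAP subset, are printed 5′ to 3′ with the motif match in capitals. The Inhba window (chr13:16011601-16011900, plus strand) has a GC content of 47.7%, below the median of 52.7% over 32851 windows, and holds TATAAA at position -91 from the start. The Gdf10 window (chr14:33923337-33923636, plus strand) has a GC content of 77.3% and holds GGCGCC, a sequence that BMP SMADs bind, at position 16.
Inhba: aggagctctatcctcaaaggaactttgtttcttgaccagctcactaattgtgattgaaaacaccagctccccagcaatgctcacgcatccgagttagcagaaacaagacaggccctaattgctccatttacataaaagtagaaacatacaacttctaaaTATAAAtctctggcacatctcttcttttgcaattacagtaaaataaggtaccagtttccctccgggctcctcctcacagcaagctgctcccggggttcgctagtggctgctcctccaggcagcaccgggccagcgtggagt
Gdf10: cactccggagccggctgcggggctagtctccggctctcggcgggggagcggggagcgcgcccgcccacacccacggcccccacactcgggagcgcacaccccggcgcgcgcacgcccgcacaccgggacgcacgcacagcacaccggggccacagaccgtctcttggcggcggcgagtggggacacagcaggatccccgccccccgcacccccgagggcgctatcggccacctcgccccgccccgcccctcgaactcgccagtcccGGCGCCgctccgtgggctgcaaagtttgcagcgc
Searched on both strands, TATAAA occurred in 13.6% and GGCGCC in 11.9% of all windows. The letters TGANTCA (AP-1; 7.81% of windows), TGACGTCA (CRE; 1.79%), GTCTAGAC (SMAD; 0.213%) and TGATGCAA (C/EBP-ATF; 0.895%) were in none of the 8 members' windows, and the only other match among them was GGCGCC in the Grem1 window at position -78. A match is a description of these letters and not of a bound site.

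FAP-like cells held most of the transcripts of 6 of the 10 genes in both libraries. They contributed 77.6% and 84.7% of all Inhba UMIs in Ctrl and dKO, 91.2% and 93.3% of Fst, 87.0% and 91.1% of Fstl1, 96.4% and 95.9% of Gdf10, 50.6% and 64.4% of Bmp2, and 63.8% and 72.9% of Bmp4. With doublets kept the Ctrl share of Bmp2 was 46.4%. Inhbb and Bmp6 were split between FAP-like and endothelial (EC)-like cells: FAP-like cells held 44.0% and 67.2% of Inhbb and 31.6% and 53.9% of Bmp6, EC-like cells 38.6% and 24.3% of Inhbb and 38.5% and 22.2% of Bmp6. These shares follow the makeup of the libraries as well as the levels, since FAP-like cells were 27.3% of Ctrl and 37.3% of dKO cells and EC-like cells 11.6% and 5.81%. Gdf15 stood apart, with 61.6% and 66.3% of its UMIs in monocyte/macrophage (MO/MP)-like cells. Grem1, which encodes the BMP antagonist gremlin 1, was nearly absent, with 4 UMIs in 4 Ctrl cells and 2 UMIs in 2 dKO cells. The plot of levels by cell class shows the CPM of all 10 genes, which can order the classes otherwise than these shares. Bmp4 stood at 71.0 and 109 CPM in EC-like cells, against 35.9 and 27.5 CPM in FAP-like cells. Bmp2 stood at 113 and 84.6 CPM in tenocyte-like cells, against 50.2 and 38.1 CPM in FAP-like cells.

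**Figure D1:**
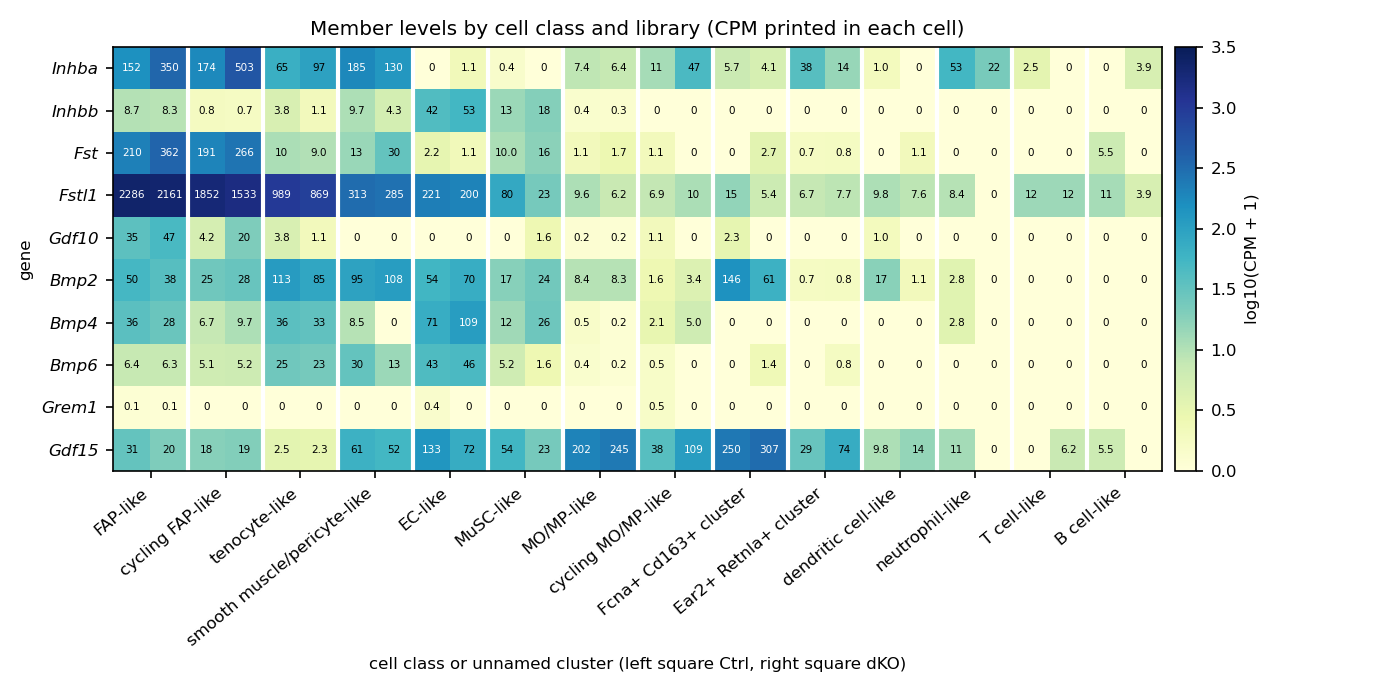
Level of each of the 10 genes in the larger cell classes and unnamed clusters, as the log10 of CPM plus 1 in colour, with the Ctrl library in the left and the dKO library in the right square of each pair. Fst, Fstl1 and Gdf10 are highest in the FAP-like columns, Gdf15 in the MO/MP-like and Fcna+ columns, and Inhbb in the EC-like column, where Inhbb stood at 42.2 and 52.8 CPM and Bmp6 at 43.4 and 45.9 CPM.

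Between genotypes, the FAP-like cells of the dKO library carried more transcript of the activin chain gene Inhba and of its antagonist Fst, while the other members with enough UMIs moved less or stood lower. Of 9 members with at least 50 UMIs over both libraries, 2 were at least 1.5-fold higher in dKO (Inhba and Fst), against 3.03% of the 11302 FAP-like genes so measured, and 1 was at least 1.5-fold lower (Gdf15), against 4.26%. The median log2 ratio of the 9 members was -0.07, beside -0.06 over all genes measured. The plot of ratios sets the 9 genes beside those of the other large classes.

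**Figure D2:**
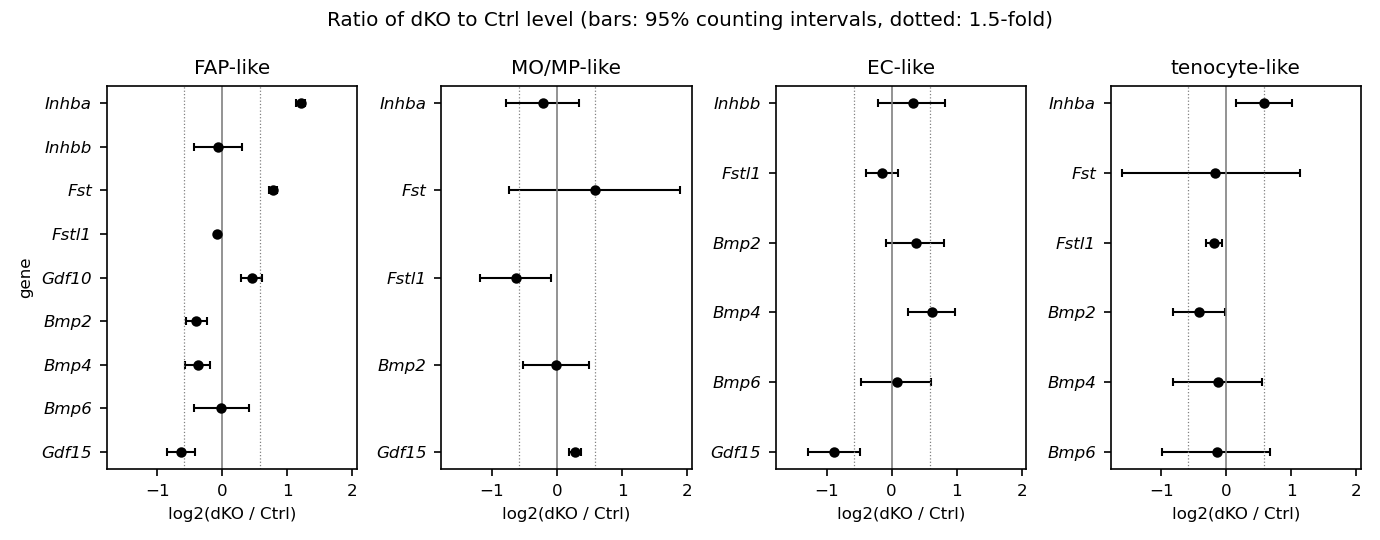
Log2 of the dKO level over the Ctrl level for the members with enough UMIs in each cell class, with 95% counting intervals as bars and the 1.5-fold bounds as dotted lines. In FAP-like cells Inhba (1.20) and Fst (0.78) lie to the right of the upper bound, and Gdf15 lies below 0 in FAP-like and EC-like cells and above 0 in MO/MP-like cells.

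Inhba encodes the inhibin βA chain, the subunit of activin A. FAP-like cells gave 2259 Inhba UMIs in Ctrl and 5368 in dKO, which is 152 and 350.4 CPM and a ratio of 2.30 (2.19 to 2.42). Summed over all kept cells the levels were 71.3 and 209 CPM, a ratio of 2.92, in which the larger FAP-like share of the dKO library also enters. The transcript was not spread evenly: the median FAP-like cell held none in either library, and the 10% of cells richest in it held 91.1% of the Inhba UMIs in Ctrl and 93.2% in dKO. Cells at 1000 CPM or more numbered 28 of 1096 in Ctrl (2.55%, exact binomial interval 1.70 to 3.67) against 63 of 1150 in dKO (5.48%, 4.23 to 6.95), and held 66.8% and 79.5% of the Inhba UMIs. After each cell was thinned to 2000 UMIs, which left out 63 and 54 shallower cells, the share of FAP-like cells with an Inhba UMI was 10.7% (8.92 to 12.8) for Ctrl and 13.96% (12.0 to 16.2) for dKO, and these intervals overlap. Without thinning the shares were 24.5% and 27.0%. The difference was 3.21 percentage points at 2000 UMIs and 5.59 points at 4000 UMIs. Overlap of the intervals does not show that the shares are alike. EC-like cells, which served as the background, gave Inhba in 0 of 399 Ctrl cells, which by a limit of 3 counts allows up to 0.752% of cells with a UMI, and in 1 of 143 dKO cells at the same thinned depth, with median depths before thinning of 4698 and 3802 UMIs beside 11762 and 11870 in FAP-like cells. The libraries thus stood relatively further apart in the share of FAP-like cells with a high Inhba level than in the share with any Inhba UMI.

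Markers of most other cell types summed to less in the FAP-like cells of the dKO library, and those of MuSCs to more. The summed MO/MP markers stood at 89.9 and 72.2 CPM (3 of 15 higher in dKO), the EC markers at 178 and 125 CPM (0 of 13 higher), the smooth muscle/pericyte markers at 282 and 232 CPM (3 of 12), the neutrophil markers at 38.7 and 5.61 CPM (1 of 9) and the FAP markers themselves at 45806 and 43053 CPM (6 of 13). The MuSC list, which includes genes that mesenchymal cells also use, stood at 427 and 543 CPM (3 of 12 higher). The part of these in the Inhba and Fst values was not tested.

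Within the FAP-like cells Inhba was concentrated in the 2 subsets that carried the activated-FAP markers, and the difference between libraries lay there as well. The Il1rl1+ Lif+ subset (104 Ctrl and 140 dKO cells) had 575 and 830.4 CPM of Inhba, from 1291 and 2484 UMIs, and the Itpkc+ Noct+ subset (247 and 331 cells) had 145 and 518 CPM, from 630 and 2636 UMIs. The ratios were 1.44 (1.35 to 1.55) and 3.57 (3.27 to 3.90). In both libraries these were the FAP subsets with the highest Inhba level. The Il1rl1+ Lif+ subset stood at 7.49 times the level of all other FAP-like cells in Ctrl and 3.55 times in dKO. For the Itpkc+ Noct+ subset alone the values were 0.937 (0.853 to 1.03) in Ctrl, an interval that includes 1, and 1.94 in dKO. The G0s2+ subset, the largest with 474 and 388 cells, had 28.7 and 23.7 CPM, with a ratio whose interval included 1 (0.826, 0.649 to 1.05). In the Vit+ Clu+ subset (58 and 49 cells) Inhba was lower in dKO, at 96.1 and 32.8 CPM from 46 and 14 UMIs, 17 of the former in 1 cell (0.342, 0.173 to 0.632). In the Pi16+ Dpp4+ subset the values of 85.4 and 69.2 CPM came almost wholly from 1 cell in each library, which held 104 of 107 and 95 of 108 UMIs. Cycling FAP-like cells, 36 and 37 in number, had 174 and 503 CPM (2.89, 2.47 to 3.39), with 69 of the 207 Ctrl and 174 of the 675 dKO UMIs in 1 cell each, and the log2 ratio of 1.53 dropped to between 0.68 and 0.70 where the cells were clustered with doublets kept, with another cell filter or without integration. The activated subsets also held a larger part of the FAP-like cells in dKO, and with each library weighted to the same mix of subsets Inhba stood at 167 and 323 CPM and the ratio was 1.93 in place of 2.30.

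Outside the FAPs, Inhba was present in mural and tendon cells. Smooth muscle/pericyte-like cells had 185 and 129.6 CPM from 152 and 30 UMIs, with 31 of the Ctrl UMIs in 1 cell and a ratio of 0.701 (0.457 to 1.04) that includes 1. Tenocyte-like cells had 64.9 and 97.0 CPM from 102 and 86 UMIs (1.49, 1.11 to 2.01). In order of level, the intervals of smooth muscle/pericyte-like, cycling FAP-like and FAP-like cells overlapped in Ctrl, whereas in dKO cycling FAP-like cells stood above FAP-like cells, and both stood above the overlapping mural and tendon values. MO/MP-like cells had 7.39 and 6.38 CPM. Cycling MO/MP-like cells had 10.7 and 46.9 CPM from 20 and 28 UMIs (4.39, 2.39 to 8.23). An unnamed macrophage-type cluster led by Ear2 had 37.7 and 13.9 CPM from 51 and 18 UMIs (0.370, 0.203 to 0.643). An unnamed cluster of 28 and 13 cells led by Sfrp5 had 12 and 86 Inhba UMIs, with 65 of the dKO UMIs in 1 cell.

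Inhbb encodes the βB chain, the subunit of activin B. In EC-like cells it gave 113 and 46 UMIs, 42.2 and 52.8 CPM, a ratio of 1.25 (0.867 to 1.77), and in FAP-like cells 129 and 127 UMIs, 8.69 and 8.29 CPM, a ratio of 0.954 (0.741 to 1.23). Neither interval excluded 1, but FAP subsets differed in direction: Inhbb was lower in dKO in the G0s2+ cells (76 and 33 UMIs; 0.549, 0.353 to 0.836) and higher in the Il1rl1+ Lif+ cells (3 and 20 UMIs; ratio interval 1.48 to 26.3). Among the EC-like clusters the Car4+ and Selp+ clusters carried it, at 42.8 and 70.8 CPM (1.65, 1.00 to 2.65) and at 54.7 and 55.5 CPM, while the Gkn3+ cluster had 2 UMIs in each library. MuSC-like cells had 30 and 11 UMIs.

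Fst, which encodes follistatin, the high-affinity antagonist of activins and myostatin, was also higher in the FAP-like cells of the dKO library. The Itpkc+ Noct+ subset had the highest ratio for Fst as it had for Inhba, whereas the G0s2+ and Vit+ Clu+ subsets were higher in dKO for Fst and not for Inhba. FAP-like cells gave 3124 UMIs in Ctrl and 5546 in dKO, 210.4 and 362 CPM, a ratio of 1.72 (1.65 to 1.80). Fst was spread over many more cells than Inhba. The median FAP-like cell stood at 49.8 CPM in Ctrl and 137 CPM in dKO, 41.9% and 55.3% of cells reached 100 CPM, and 45 (4.11%) and 106 (9.22%) reached 1000 CPM. After thinning to 2000 UMIs Fst was detected in 23.0% (20.5 to 25.7) and 35.6% (32.7 to 38.5) of FAP-like cells, intervals that do not overlap, against 1 of 399 and 1 of 143 EC-like cells. Unthinned, the shares were 54.5% and 68.2%. The plot of single FAP-like cells shows the dKO curve above the Ctrl curve for both genes, with the wider gap in percent of cells for Fst below 1000 CPM.

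**Figure D3:**
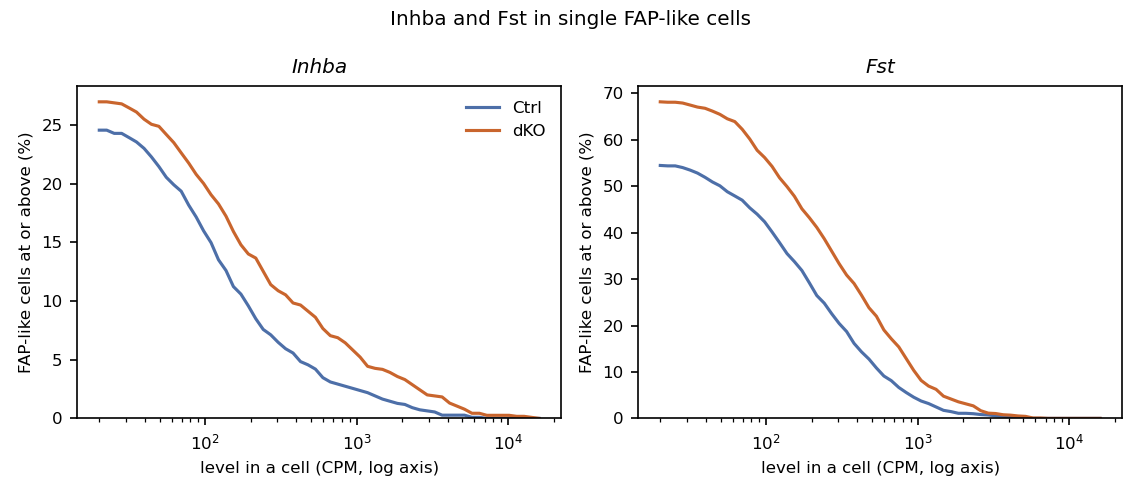
Percent of FAP-like cells at or above a given level (CPM, log axis) of Inhba and of Fst, for the Ctrl and dKO libraries. At 100 CPM the curves stand at 15.6% and 19.7% for Inhba and at 41.9% and 55.3% for Fst, and at 1000 CPM at 2.55% and 5.48% for Inhba and at 4.11% and 9.22% for Fst.

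The Fst difference stood in the G0s2+, Itpkc+ Noct+ and Vit+ Clu+ subsets. G0s2+ cells had 164 and 331 CPM (2.02, 1.87 to 2.19), Itpkc+ Noct+ cells 180.0 and 409 CPM (2.27, 2.09 to 2.47) and Vit+ Clu+ cells 278 and 556 CPM (ratio interval 1.61 to 2.49). In the Il1rl1+ Lif+ subset, where Inhba was highest, Fst stood at 357 and 355 CPM and the ratio was 0.994 (0.906 to 1.09). The ratios of the Pi16+ Dpp4+ cells (269 and 309 CPM; 1.15, 0.998 to 1.32) and of the Fmo2+ Gdf10+ cells (170.2 and 157 CPM; 0.920, 0.612 to 1.38) had intervals that included 1. Cycling FAP-like cells had 191 and 266 CPM, with 80 of the 227 Ctrl UMIs in 1 cell. At the same mix of subsets the ratio was 1.67, close to the 1.72 of the plain sums. Outside the FAPs Fst was scarce, with 16 and 8 UMIs in tenocyte-like and 23 and 10 in MuSC-like cells.

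FAP-like cells with the activin chain transcript did not carry that of its antagonist detectably more often than cells without it. Of the thinned FAP-like cells with an Inhba UMI, those that also had an Fst UMI were 17 of 111 in Ctrl (15.3%, 9.18 to 23.4) against 56 of 153 in dKO (36.6%, 29.0 to 44.8). Among cells without an Inhba UMI the shares with Fst were 24.0% (21.2 to 26.9) and 35.4% (32.4 to 38.6). The intervals of the cells with and without Inhba overlapped within each library.

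**Figure D4:**
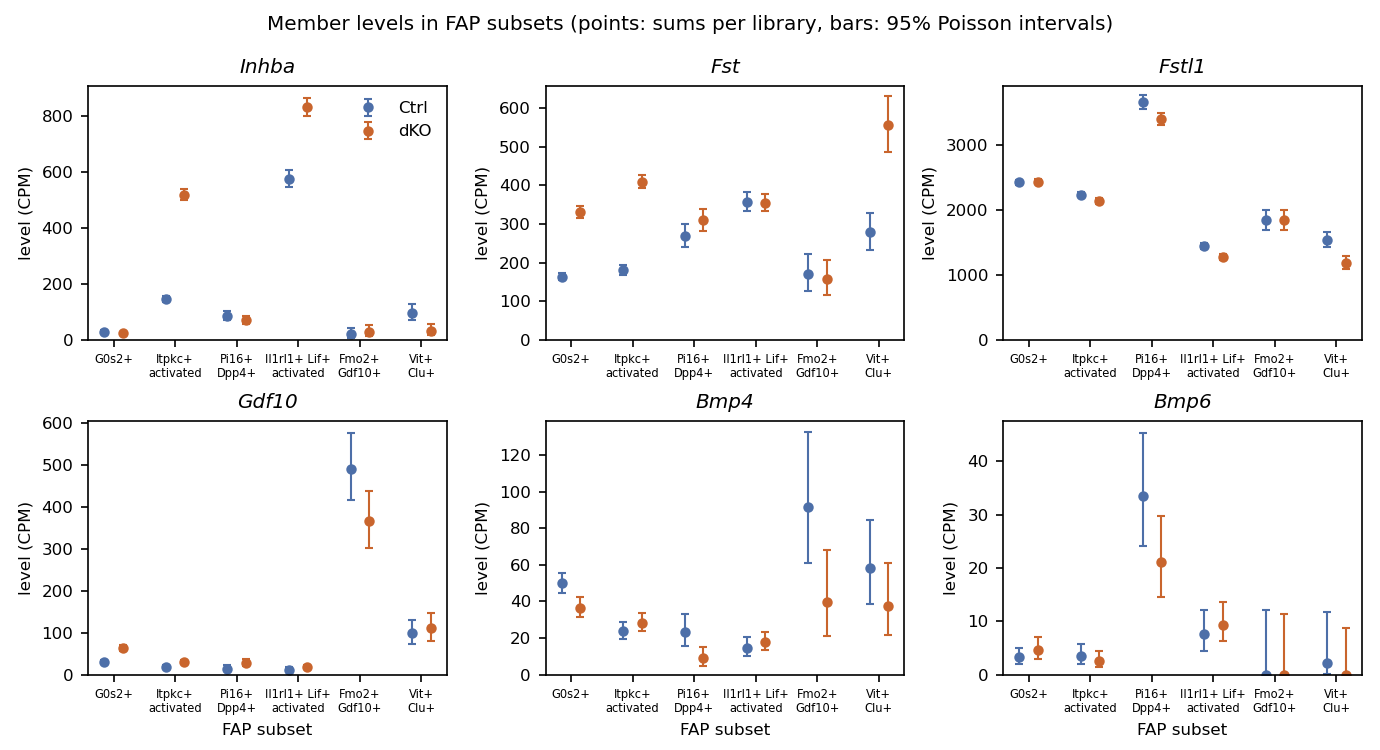
Level (CPM) of 6 members in each FAP subset, with points for the sum over each library's cells and bars for 95% Poisson intervals. Inhba is highest in the Il1rl1+ Lif+ subset in both libraries (575 and 830.4 CPM) and departs between libraries in the Itpkc+ Noct+ subset, whereas Fst departs in the G0s2+, Itpkc+ Noct+ and Vit+ Clu+ subsets, and Gdf10 is highest in the Fmo2+ Gdf10+ subset.

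Fstl1 encodes follistatin-like 1, a secreted glycoprotein that carries a follistatin-type domain and can bind BMPs. With 33937 and 33111 UMIs in FAP-like cells it was the most counted of the members, at 2286 and 2161 CPM, and its ratio of 0.946 (0.931 to 0.960) differed from 1 by less than the 1.5-fold bound. It was highest in the Pi16+ Dpp4+ subset, at 3668 and 3395 CPM, followed by the G0s2+ (2425 and 2438 CPM) and Itpkc+ Noct+ cells (2236 and 2138 CPM), and lower in the Il1rl1+ Lif+ cells (1443 and 1276 CPM). Tenocyte-like cells had 989 and 869 CPM (0.879, 0.805 to 0.959), smooth muscle/pericyte-like cells 313 and 285 CPM, and EC-like cells 221 and 199.6 CPM. The MuSC-like value of 80.1 and 22.6 CPM, from 185 UMIs in 117 cells and 14 UMIs in 30 cells, did not hold: its log2 ratio of -1.82 became 0.06 with doublets kept and 0.50 with another cell filter. In MO/MP-like cells Fstl1 was the 1 of 4 measured members past the 1.5-fold bound, at 9.61 and 6.22 CPM (0.648, 0.440 to 0.938), with 0 members higher. In that class 4.64% of 9453 genes were lower and 5.52% higher by as much. The summed FAP markers in MO/MP-like cells were 588 and 771 CPM (2 of 13 higher in dKO), and their part in this Fstl1 value was not tested.

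Gdf10, also named BMP3B, is a BMP-family ligand known from FAPs as a factor that maintains muscle mass. FAP-like cells gave 514 and 725 UMIs, 34.6 and 47.3 CPM, a ratio of 1.37 (1.22 to 1.53). A small subset of 82 and 95 cells, led by Fmo2, Gdf10 and Inmt although Gdf10 was kept out of the genes used for clustering, had 491 and 365 CPM, which is 19.6 and 9.04 times the level of the other FAP-like cells. Over the alternative settings the dKO value ran from 7.18 times without integration to 17.0 times with the other cell filter. These were the shallowest FAP-like cells, with medians of 2009 and 2325 UMIs, and thinning to 2000 UMIs left Gdf10 in 51.2% and 24.1% of those deep enough, with 41 cells left out of each library. The difference between libraries came from the larger subsets: the G0s2+ cells had 30.8 and 62.3 CPM from 192 and 307 UMIs (2.02, 1.68 to 2.43), and the Itpkc+ Noct+ cells 18.7 and 30.6 CPM. As the mean of each cell's own CPM, which gives shallow cells equal weight, the log2 ratio over all FAP-like cells was 0.07 in place of 0.45. No more than 6 UMIs were counted in any other named class beside the FAP-like and cycling FAP-like cells.

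Bmp4 and Bmp2 encode classic BMP ligands that act through SMAD1/5/8, and both were somewhat lower in the FAP-like cells of the dKO library. Bmp4 gave 533 and 422 UMIs, 35.9 and 27.5 CPM, a ratio of 0.767 (0.674 to 0.873), and Bmp2 gave 745 and 583 UMIs, 50.2 and 38.1 CPM, a ratio of 0.758 (0.679 to 0.846). Neither sum reached the 1.5-fold bound, but as the mean of each cell's own CPM the log2 ratio of Bmp4 was -0.77 in place of -0.38, which is past it. Across subsets Bmp4 was highest in the Fmo2+ Gdf10+ cells (91.7 and 39.9 CPM from 28 and 13 UMIs), the Vit+ Clu+ cells (58.5 and 37.5 CPM) and the G0s2+ cells (49.9 and 36.5 CPM). In the Pi16+ Dpp4+ cells it stood at 23.1 and 8.98 CPM from 29 and 14 UMIs (0.388, 0.189 to 0.758), and the ratio was 0.197 without the 10 richest cells of each library and 0.587 as the mean of each cell's own CPM. In the activated-like subsets it stood at 24.0 and 28.5 CPM (Itpkc+ Noct+; 1.19, 0.917 to 1.54) and at 14.7 and 18.1 CPM (Il1rl1+ Lif+; 1.23, 0.782 to 1.96), with intervals that include 1. Bmp2 was highest in the Pi16+ Dpp4+ (78.2 and 48.1 CPM) and Itpkc+ Noct+ cells (65.0 and 43.4 CPM).

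In EC-like cells Bmp4 was higher in the dKO library, the opposite direction to FAP-like cells. Its 190 and 95 UMIs gave 71.0 and 109 CPM, a ratio of 1.53 (1.19 to 1.97), and it was the 1 of 6 measured members at least 1.5-fold higher in EC-like cells, against 5.9% of 6781 genes. The Selp+ cluster had the most, at 132 and 149 CPM with a UMI in 52 of 107 and 26 of 49 cells, while the Car4+ cluster had 40.9 and 87.8 CPM (2.15, 1.35 to 3.35) and the Gkn3+ cluster 65.7 and 73.9 CPM. Without the 10 cells richest in Bmp4 in each library, a larger part of the 179 dKO than of the 466 Ctrl cells, the log2 ratio was 0.07 in place of 0.62. The summed smooth muscle/pericyte markers in EC-like cells were 1003 and 639 CPM and the MO/MP markers 135 and 104 CPM, whereas the FAP markers were 2176 and 2489 CPM (5 of 13 higher in dKO) and the MuSC markers 439 and 831 CPM (2 of 12), and their part in these values was not tested.

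Bmp2 in EC-like cells stood at 54.2 and 70.0 CPM (1.29, 0.941 to 1.75), and the log2 ratio of 0.37 was -0.01 without the richest cell of each library. In the Selp+ cluster 1 cell gave 20 of its 23 dKO UMIs. In tenocyte-like cells Bmp2 was at 113 and 84.6 CPM from 177 and 75 UMIs (0.751, 0.565 to 0.989), where the log2 ratio of -0.41 ran from -1.11 without the 10 richest cells to -0.03 with the other cell filter, and in smooth muscle/pericyte-like cells at 94.9 and 108 CPM. An unnamed cluster of macrophage type led by Fcna and Cd163 (247 and 182 cells) had 146 and 60.8 CPM from 128 and 45 UMIs (0.417, 0.290 to 0.589). These sat in 23 and 24 cells, a single Ctrl cell held 28 of them, and the log2 ratio of -1.26 became -0.24 without the 10 richest cells of each library. The summed MO/MP markers of this cluster were 19163 and 19061 CPM. Its summed EC markers were 329 and 139 CPM, its FAP markers 634 and 952 CPM and its MuSC markers 631 and 1014 CPM, and their part in the Bmp2 value was not tested.

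Bmp6 encodes a BMP ligand that endothelial cells are known to supply to hepatocytes for the control of hepcidin. Here EC-like cells gave 116 and 40 UMIs, 43.4 and 45.9 CPM, a ratio of 1.06 (0.720 to 1.53), and FAP-like cells 95 and 97 UMIs, 6.40 and 6.33 CPM, a ratio of 0.990 (0.738 to 1.33). Within the FAPs it marked the Pi16+ Dpp4+ subset, with 33.5 and 21.2 CPM from 42 and 33 UMIs, which is 8.59 and 4.55 times the level of the other FAP-like cells. Tenocyte-like cells had 24.8 and 22.6 CPM.

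Gdf15 is a divergent member of the superfamily, a stress-induced cytokine that signals through the brainstem receptor GFRAL and is released by macrophages in injured muscle. Its transcript was higher in the MO/MP-like cells and lower in the FAP-like and EC-like cells of the dKO library. MO/MP-like cells gave 2186 and 1616 UMIs, 202 and 245 CPM, a ratio of 1.21 (1.14 to 1.30). Thinned to 2000 UMIs, 16.2% and 20.5% of MO/MP-like cells had a Gdf15 UMI (32.1% and 33.7% unthinned), against 0 of 94 and 2 of 113 T cell-like cells. Median depths before thinning were 8743 and 7248 UMIs in MO/MP-like and 3218 and 3081 in T cell-like cells.

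The MO/MP-like difference stood in the Spp1+ cluster, at 192 and 303 CPM from 1083 and 997 UMIs (1.58, 1.45 to 1.72), although with doublets kept its log2 ratio was 0.18 in place of 0.66. The C1q+ cluster had 289.9 and 283 CPM (0.975, 0.879 to 1.08) and the Chil3+ cluster 55.5 and 33.3 CPM (0.601, 0.408 to 0.873), with 30 of its 95 Ctrl UMIs in 1 cell. Clusters of MO/MP type thus differed in direction. The unnamed Fcna+ cluster had 249.9 and 307 CPM (1.23, 1.02 to 1.49), and the unnamed Ear2+ cluster had 28.8 and 73.5 CPM (2.55, 1.74 to 3.80), with 22 of its 39 Ctrl UMIs in 1 cell. Cycling MO/MP-like cells had 37.9 and 109 CPM from 71 and 65 UMIs (2.87, 2.02 to 4.08), with 24 of the dKO UMIs in 1 cell. In MO/MP-like cells the summed neutrophil markers were 241 and 125 CPM, the EC markers 354 and 273 CPM, the FAP markers 588 and 771 CPM (2 of 13 higher in dKO) and the MuSC markers 256 and 409 CPM (4 of 12), and their part was not tested.

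In FAP-like cells Gdf15 gave 455 and 301 UMIs, 30.6 and 19.6 CPM, a ratio of 0.641 (0.552 to 0.743). It was inside the 1.5-fold bound with doublets kept or with scaling to the median ratio of all genes. The Itpkc+ Noct+ cells had 32.7 and 12.4 CPM, with 46 of the 142 Ctrl UMIs in 1 cell, and the Il1rl1+ Lif+ cells 48.5 and 36.8 CPM. In EC-like cells 357 and 63 UMIs gave 133 and 72.3 CPM, a ratio of 0.542 (0.408 to 0.710), the 1 member lower by 1.5-fold where 11.1% of genes were. The log2 ratio of -0.88 became -3.13 without the 10 richest cells of each library. Most of these came from the Gkn3+ cluster, with 246 and 39 UMIs in 21 and 3 cells, 808 and 222 CPM, and 75 and 25 UMIs in the richest cell. The smooth muscle/pericyte markers of that cluster summed to 916 and 176 CPM and its MO/MP markers to 55.8 and 108 CPM (7 of 15 higher in dKO), and their part was not tested. MuSC-like cells had 125 and 14 UMIs, 54.1 and 22.6 CPM, with 40 of the Ctrl UMIs in 1 cell.

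**Figure D5:**
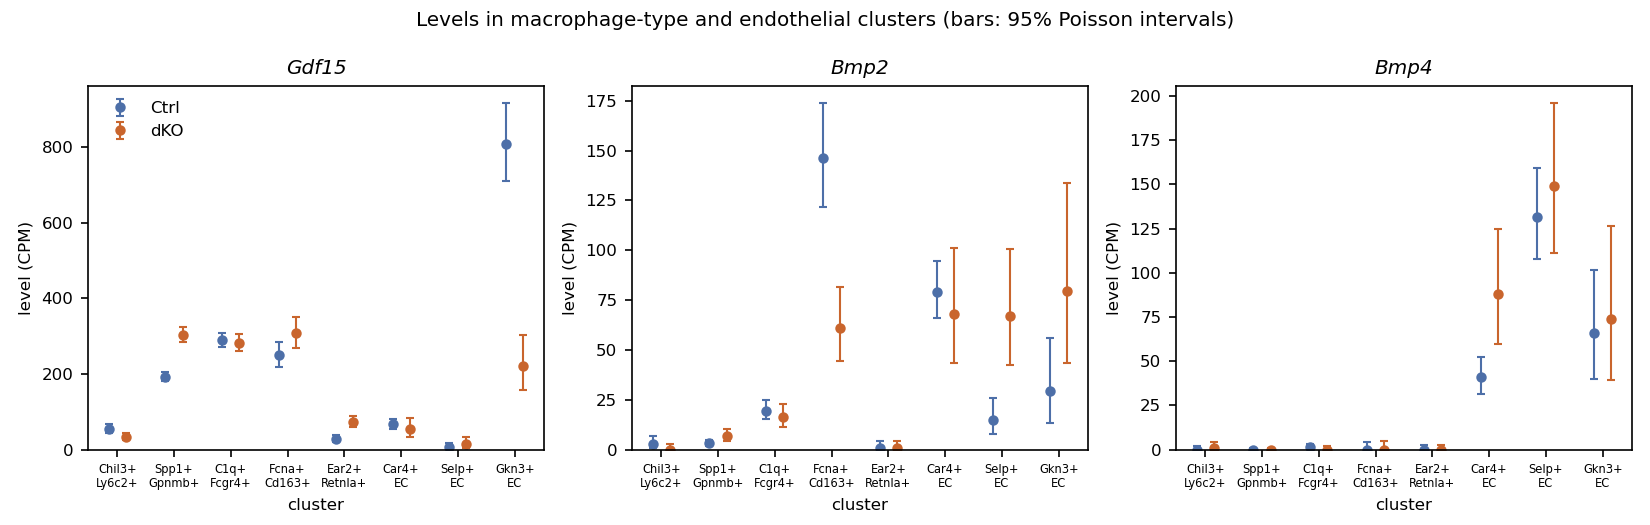
Levels (CPM) of members in the macrophage-type and endothelial clusters of each library, with 95% Poisson intervals as bars. Gdf15 is higher in dKO in the Spp1+ cluster (192 and 303 CPM) and lower in the Gkn3+ cluster (808 and 222 CPM), and Bmp4 is highest in the Selp+ cluster (132 and 149 CPM).

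In the smaller stromal classes no member passed the 1.5-fold bound. In smooth muscle/pericyte-like cells 4 members were measured and 0 were past it in either direction, where 8.55% of 3485 genes were higher and 15.6% lower, and in tenocyte-like cells 5 were measured and 0 were past it, where 4.32% of 5231 genes were higher and 6.54% lower. The median log2 ratios of the members were -0.18 and -0.14, beside -0.01 over all genes in both classes. In MO/MP-like and EC-like cells they were -0.11 and 0.20, beside -0.01 and -0.05. The sums rest on 107 and 38 smooth muscle/pericyte-like and on 147 and 90 tenocyte-like cells.

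The machinery that receives these ligands differed little in FAP-like cells. Of 76 further genes of the pathway, 50 had enough UMIs there. Of these, 1 was at least 1.5-fold higher in dKO and 2 were at least 1.5-fold lower, where 3.03% and 4.26% of all genes were. All 13 measured receptors and co-receptors were within the bound, among them the activin type II receptor Acvr2a (44.1 and 52.6 CPM) and the BMP receptors Bmpr1a (78.1 and 73.3 CPM) and Bmpr2 (142 and 135 CPM), as were all 7 measured SMADs. Acvr2a was highest in FAP-like cells, whereas the endothelial co-receptor Eng (704 and 678 CPM) and Acvrl1 (168 and 147 CPM) were highest in EC-like cells, and 0 UMIs of Gfral were counted in the kept cells.

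Among the antagonists in FAP-like cells, Chrd, which encodes chordin, was lower in dKO (125 and 78 UMIs; 0.605, 0.450 to 0.809). Of the 13 immediate BMP and SMAD targets in FAP-like cells, 0 were higher by 1.5-fold, where 3.03% of all genes were. Hey1 was lower, from 65 and 38 UMIs (0.567, 0.369 to 0.858), where 4.26% of all genes were past the 1.5-fold bound. The SMAD-responsive genes Id3 (819 and 957 CPM; 1.17) and Smad7 (105 and 121 CPM; 1.15) and the feedback inhibitor Pmepa1 (579 and 529 CPM; 0.914) stayed inside it. These are transcript levels only, and SMAD phosphorylation was not measured.

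In MO/MP-like cells 28 of the 76 genes were measured, of which 1 was higher and 4 were lower, where 5.52% and 4.64% of all genes were. The higher gene was Id3, a BMP-responsive inhibitor of differentiation, (43.9 and 80.6 CPM; 1.84, 1.62 to 2.08), and the lower genes were Pmepa1 (57.9 and 29.6 CPM; 0.511, 0.433 to 0.601), the BMP pseudoreceptor gene Bambi (0.628, 0.493 to 0.794), Htra3 (0.639, 0.419 to 0.954) and Bmp1 (0.622, 0.310 to 1.18). Htra3 stood at 8.32 and 5.31 CPM there, against 388 and 292 CPM in FAP-like cells. Bmp1 stood at 3.42 and 2.13 CPM, against 246 and 224 CPM. In EC-like cells 30 of the 76 genes were measured, of which 4 were higher and 3 lower, where 5.9% and 11.1% of all genes were. Htra1 (1.60, 1.21 to 2.11), Nbl1 (1.60, 0.935 to 2.68) and Acvr1b (1.72, 0.986 to 2.94) were among the higher genes. Twsg1 (0.648, 0.373 to 1.07), Smad2 (0.620, 0.368 to 0.997) and Smad1 were lower. The intervals of Nbl1, Acvr1b and Twsg1 included 1. Smad1, the transducer of BMP signals, stood at 290.1 and 190.5 CPM (0.657, 0.552 to 0.777).

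By Pearson's r of log2 levels over 34 sums of a class or FAP subset in a library, the genes with patterns most like each member were named among 11443 genes. The sums share their libraries and many come from FAPs, so the values are descriptions. Inhba was most like the chemokine gene Ccl2 (0.81) and Tnfaip6 (0.80), and Fst like Has1, a hyaluronan synthase gene, and Ccl11 (both 0.97). Fstl1 was most like the fibrillin gene Fbn1 and the nidogen gene Nid1 (both 0.98), and Gdf10 like Kcnt2 (0.97) and the complement gene C7 (0.96). Bmp4 was most like Cyp2d22 (0.93), Bmp2 like Pls3 (0.91), Bmp6 like Limch1 (0.93) and Inhbb like Unc45b (0.87). Gdf15 had the weakest likeness, to Fam129b (0.78) and Gna12 (0.74).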

How the data were processed

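10x Genomics libraries of live hind limb muscle mononuclear cells, 1 Ctrl and 1 dKO, were analysed. The deposited matrices hold raw UMI counts per gene and cell, made by the authors with Cell Ranger on mm10 (7.0.0 in the submitters' processing notes, which also name Seurat 4.3.0; 3.0.2 in the matrix header). The 24984 symbols include no mitochondrial genes, so no filter on them was possible. Cells with at least 500 genes were kept. Scrublet's own threshold (scanpy 1.11.5) called almost no doublets, so the 7.5% with the highest scores were taken as doublets in each library and left out. Cells were clustered in Seurat 5.3.0 (R 4.3.3; 2000 variable genes, 40 dimensions, resolution 0.8, 23 clusters; FAP-like cells again at 0.4) with members and pathway genes left out of the features, and clusters were named from marker lists as "X-like" where at least 3 markers were enriched. 3 clusters stayed unnamed, and cell types may differ from the study's own. The members and all lists were chosen with earlier results of these data known, and details of the naming rule were set after the clusters were seen.

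Counts were summed per class, FAP subset and library and divided by the summed UMIs of the same cells (CPM). Intervals are exact at 95% (Poisson for sums, binomial for shares, conditional binomial for ratios; numpy 2.4.6, scipy 1.17.1, Python 3.11.15). Ratios were given from 20 UMIs over both libraries and folds counted at 1.5 among genes with at least 50 UMIs. Thinning drew 2000 UMIs from each cell. Members with at least 200 UMIs were compared with other genes on log2(CPM + 10). The named genes were the members, the pathway genes past the fold and the most alike genes, and other pathway genes were named for their role. Some pathway genes are not reported here. Scripts were tested on simulated data. Positions come from GENCODE M21 and start-site windows from RefSeq. Alternatives covered doublet removal, the cell filter, integration, the clustering features, the sub-clustering resolution, scaling, the UMI minimum, the thinning depth and leaving out the cells richest in a member.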

Additional observations from a re-analysis of the deposited data

Results flagged for a closer look

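Among class sums with at least 50 UMIs over both libraries, in 7 pairs of cell classes the dKO over Ctrl ratio of a member lay on opposite sides of 1 with counting intervals that exclude 1, and in no case was the difference tested, since each group had 1 library. Bmp4 was higher in the dKO library in EC-like cells (1.53) and lower in FAP-like cells (0.767), a difference of 1.00 on the log2 scale. Gdf15 was higher in MO/MP-like cells (1.21) and lower in EC-like (0.542), FAP-like (0.641) and MuSC-like cells (0.418), differences of 1.16, 0.92 and 1.54 on the log2 scale. In cycling MO/MP-like cells the Gdf15 ratio was 2.87, with 24 of the 65 dKO UMIs in 1 cell, and the differences from EC-like, FAP-like and MuSC-like cells were 2.41, 2.16 and 2.78. Below that minimum, Bmp4 in MuSC-like cells (28 and 16 UMIs, 9 of the latter in 1 cell; 2.13, 1.08 to 4.08) also lay opposite to FAP-like cells, and this too was not tested. The MuSC-like values rest on 30 dKO cells, and the Gdf15 sum of EC-like cells on 21 and 3 cells of the Gkn3+ cluster for the larger part.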

How the results depend on the processing

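No paired analysis was possible because each group had 1 library and no test was run. Of 238 values of 29 ratios recomputed, 197 moved by less than their counting interval, and 3 changed direction from a ratio whose interval excluded 1. Of 70 recomputed counts of members past the fold, 60 were unchanged or within 1.5 times. FAP subset contrasts were less stable. Among 72 recomputed values of 12 contrasts, 34 stayed inside the counting interval, 35 left it and 3 changed direction. Among 80 recomputed shares of a gene's UMIs, 59 stayed inside the interval and 21 left it. The log2 ratio of Inhba in FAP-like cells (1.20) was 1.35 with doublets kept, 1.34 with cells of at least 200 genes and 1000 UMIs, 1.35 without integration and, in 2 alternatives chosen after seeing the data, 1.52 without the 10 richest cells of each library and 0.95 at the same mix of subsets. That of Fst (0.78) was 0.88 without the 10 richest cells. The count of members lower by 1.5-fold went from 1 to 0 in FAP-like cells with doublets kept or with scaling to the median ratio, from 1 to 0 in MO/MP-like cells with the other cell filter, and from 1 to 0 in EC-like cells with doublets kept. Smooth muscle/pericyte-like cells went from 0 to 2 higher and 0 to 1 lower with doublets kept, and from 0 to 1 lower from 20 UMIs. The count of higher members went from 0 to 1 in MO/MP-like cells from 20 UMIs, and from 0 to 1 in tenocyte-like cells with doublets kept or without integration. The 3 ratio values that changed direction were of Fstl1 in MuSC-like cells and of Gdf15 in the Fcna+ cluster. Fstl1 (-1.82) went to 0.065 with doublets kept and 0.50 with the other cell filter. Gdf15 (0.30) went to -0.012 without the 10 richest cells. Another 5 ratios whose interval included 1 changed sign in at least 1 alternative: Inhbb (-0.07) and Bmp6 (-0.02) in FAP-like cells, to at most 0.09 and 0.04, and Bmp2 (0.37), Inhbb (0.32) and Bmp6 (0.08) in EC-like cells, to as low as -2.29, -0.30 and -0.48 without the 10 richest cells. The Fst level of the activated-like subsets over other FAP-like cells in dKO, 0.23 on the log2 scale, became -0.072 with members among the clustering features, -0.21 without integration and -0.056 at sub-clustering resolution 0.2. The cause was not tested in any of these. The same contrast for Inhba ran from 2.57 to 3.69 in Ctrl and from 3.02 to 5.03 in dKO. Few UMIs of Inhbb, Bmp6 and Grem1 and few MuSC-like cells in dKO limit their values.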

Other observations

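In the stromal classes outside the FAPs the share of lower pathway genes was no higher than that of all genes. In tenocyte-like cells 31 of the 76 pathway genes were measured, of which 2 were at least 1.5-fold lower in dKO, where 6.54% of all genes were. Mstn, which encodes myostatin, the growth-restraining ligand that follistatin binds, gave 89 UMIs in 147 Ctrl cells and 4 UMIs in 90 dKO cells, 56.7 and 4.51 CPM, a ratio of 0.0797 (0.0212 to 0.211). Smad7, an inhibitory SMAD, stood at 117 and 74.5 CPM (0.639, 0.475 to 0.851). In smooth muscle/pericyte-like cells 22 were measured and 2 were lower, where 15.6% of all genes were. Eng (175 and 13 UMIs; 0.264, 0.138 to 0.463) and the BMP target Id1 (315 and 48 UMIs; 0.541, 0.391 to 0.735) were the lower genes. Both genes were highest in EC-like cells, Eng at 704 and 678 CPM and Id1 at 637 and 571 CPM. The part of EC transcripts in the smooth muscle/pericyte-like values was not tested. The smooth muscle/pericyte-like and tenocyte-like classes held 38 and 90 dKO cells, and no test between genotypes was possible.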
